A study of Homo sapiens with 4 samples.

Results

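Ribosome production in HT29 cells was examined through 42 genes, picked by symbol from a table of 33117 rows; all 42 were found and all 42 passed the filter of a mean of 1 FPKM that left 12462 genes for testing. They comprise 5 subunits and 2 factors of RNA polymerase I, 3 nucleolar scaffold proteins, 6 proteins of small nucleolar ribonucleoproteins (snoRNPs), 13 factors of the small ribosomal subunit and 13 of the large one. HT29 is an established human colorectal adenocarcinoma line, grown in DMEM with fetal calf serum. Total RNA from untreated cells gave 2 libraries, and 2 more came from cells kept with 100 µM fluorouracil for 2 h. The labels name no vehicle for the untreated cells and do not tell whether replicates were separate cultures. The p-values therefore speak only of how far these libraries lie apart, and that spread may be technical.

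Ribosomes are made in the nucleolus, where RNA polymerase I transcribes the ribosomal DNA into a long precursor. SnoRNPs methylate and pseudouridylate that precursor, and separate sets of assembly factors cut it and fold it into the small and the large subunit. In growing and cancer cells the genes of this pathway are under the control of the transcription factor MYC. Fluorouracil is a pyrimidine analogue given in colorectal cancer. It blocks thymidylate synthase, is built into RNA and is known to disturb the processing of ribosomal RNA.

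Values are FPKM, fragments scaled to transcript length and to the size of the library, so they are levels relative to the rest of a library and comparable between genes per length. The table itself names no unit; FPKM is inferred from the listed use of Cufflinks and from the values. Where 4 values follow each other, they stand for untreated replicates 1 and 2 and then fluorouracil replicates 1 and 2. A log2 change refers to log2(FPKM + 0.1), treated minus untreated, and understates the change of weakly expressed genes. SE is that of the limma fit with n = 2 libraries per group. In bulk RNA, fewer cells with a transcript and less transcript per cell cannot be told apart.

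Fluorouracil replicate 2 stood apart from the other 3 libraries. Across the tested genes its log2 values correlated with theirs at r of 0.704 to 0.716, against 0.960 to 0.980 among the other 3. FPKM over rows with a symbol summed to 764348 in it and to between 426453 and 440023 in the others. RNA18S5 and RNA28S5, rows of mature ribosomal RNA, were listed at 298 and 413 FPKM in it and at 0 in the other 3. RNA45S5, the precursor row, was at 0.145, 0.250, 0.508 and 5.05 FPKM, so no response of ribosomal RNA itself is read from these libraries. RNA5-8S5 was at 0 in all libraries. These 4 rows were chosen after their values had been seen. Markers of colon epithelium were present in all libraries at very different levels. KRT8, the highest of the 11 read, was at 3386 to 7734 FPKM. CDX1 and CDX2, transcription factors that define the intestine, were low at 0.0384 to 0.834 FPKM. CDH17, also on that list, was at 1.62 to 2.08 FPKM. Of 13 markers of fibroblasts, leukocytes and endothelium, 4 were at 0 in all libraries. The summed level of the 6 fibroblast markers was 4.24 to 4.82 FPKM untreated and 2.17 to 3.36 FPKM treated, nearly all of it LUM, and that of the 4 leukocyte markers reached 8.77 FPKM in fluorouracil replicate 2, through CD14. The part of these values in the results was not tested.

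No member passed the limma test between treated and untreated cells. With 2 libraries per group, 0 of 12462 genes (0.0%) and 0 of the 42 members had a Benjamini-Hochberg adjusted p below 0.05, and 400 genes (3.21%) and 1 member, POLR1B, had an unadjusted p below 0.05. The limma adjusted p was at least 0.671 for every member. With 2 against 2 libraries the smallest two-sided p of an exact permutation test is 0.333, so none was run on single genes.

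By the order of the 4 values, more members were lower than higher in treated cells. In 17 members both treated values lay below both untreated ones, 40.5% of the 42, where 19.3% of all tested genes did so. In 5 members both lay above (11.9%, against 24.4% of all tested genes), and in 20 the groups overlapped. In fluorouracil replicate 1 alone, the library that resembled the untreated ones, 25 members lay below both untreated values (59.5%, against 36.4% of all tested genes) and 6 above both (14.3%, against 39.0%). In fluorouracil replicate 2 alone the counts were 22 below (52.4%, against 41.4%) and 17 above (40.5%, against 52.9%). The median log2 difference of the members in fluorouracil replicate 1 was -0.10, where all tested genes had a median of 0.0076, and the 2 untreated libraries differed by a median of 0.10 per member in either direction. In fluorouracil replicate 2 the medians were -0.19 for the members and 0.19 for all tested genes, and the SD of the members was 0.94, against 0.20 in replicate 1. All tested genes had SDs of 1.80 and 0.53 in these libraries, wider than the members in both. After quantile normalization 21 members were lower (22.5% of all genes) and 3 higher (20.8%), and after median centring 20 were lower (21.2%) and 3 higher (22.4%). One library decided the limma count: without fluorouracil replicate 1, 28 members (66.7%) were called and so were 66.9% of all tested genes, while 0 members were called without fluorouracil replicate 2 (0.144% of genes) and 0 with a replicate block (2.72%).

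**Figure D1:**
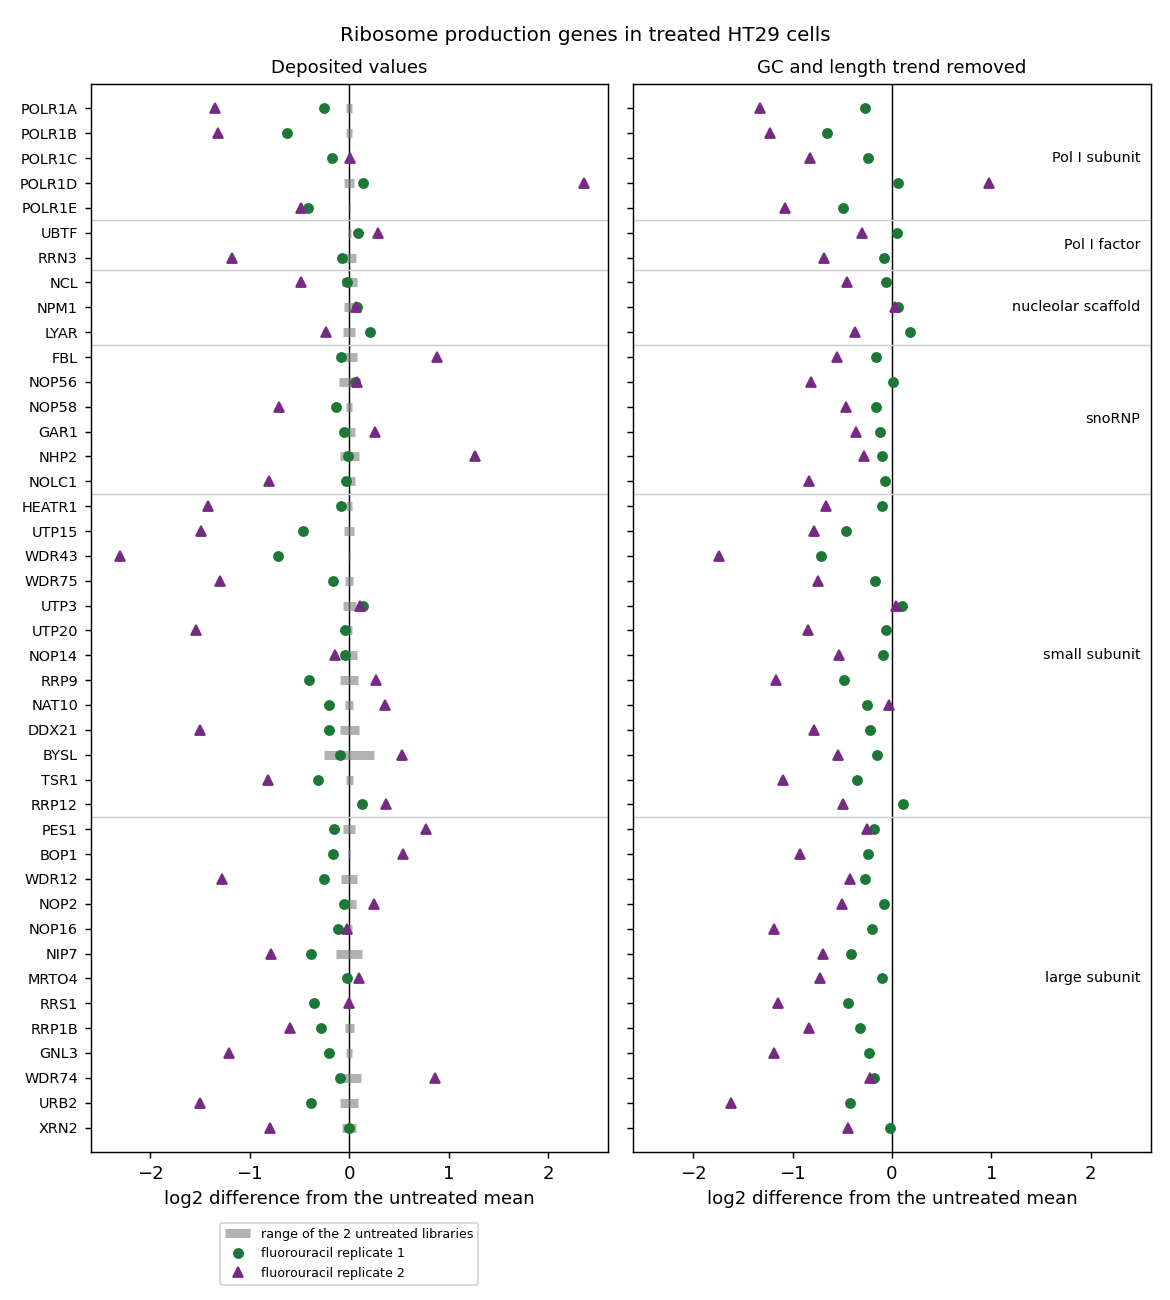
Log2 difference of each member from its untreated mean (x axis) in fluorouracil replicate 1 (circles) and replicate 2 (triangles), with members in rows by step; the left panel uses deposited values, with the range of the 2 untreated libraries as a grey bar, and the right panel values with the GC and length trend of each library removed. On the left 17 members have both symbols below the untreated range and 5 above it; on the right 31 members are lower in both treated libraries and 0 are higher.

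The spread in fluorouracil replicate 2 went with base composition. Among the 42 members, the log2 change in that library correlated with the GC content of the transcript at r = 0.758 and with log2 transcript length at r = -0.663, across genes of the same library and therefore given without a test. In fluorouracil replicate 1 the same correlations were 0.174 and -0.219. The 10933 tested protein-coding genes had r of 0.574 for GC content and -0.397 for length in replicate 2, and r of 0.0438 and -0.0581 in replicate 1. In 4 bins of GC content with nearly equal numbers of genes, from low to high, the median log2 change of the protein-coding genes in replicate 2 was -0.77, -0.12, 0.66 and 1.27. The 9, 10, 18 and 5 members in these bins had medians of -1.42, -0.64, 0.05 and 0.54, in the same order and each below that of its bin.

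**Figure D2:**
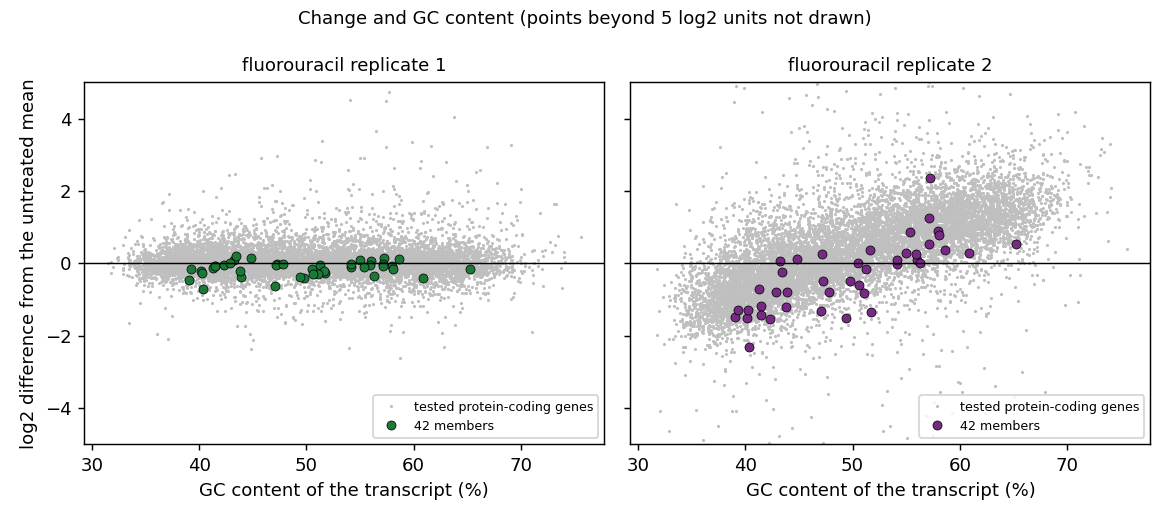
Log2 difference from the untreated mean (y axis) against GC content of the transcript in percent (x axis) for the tested protein-coding genes (grey points) and the 42 members (coloured circles), with fluorouracil replicate 1 on the left and replicate 2 on the right. Members of higher GC content mostly lie higher in replicate 2 (r = 0.758), with little slope in replicate 1 (r = 0.174); points beyond 5 log2 units are not drawn.

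The part of this trend in the members' differences was not tested. Each member was also read after a smooth trend of each library on GC content and transcript length had been subtracted, a trend fitted over all 10933 protein-coding genes. In these values 31 of 42 members were lower in both treated libraries (73.8%, against 28.6% of the protein-coding genes) and 0 were higher (against 18.8%). Their median was -0.17 for fluorouracil replicate 1 and -0.69 for replicate 2, where all protein-coding genes had medians of -0.04 and -0.06. In replicate 1, 32 members lay below both untreated values (76.2%, against 44.4% of the genes), and in replicate 2, 38 did (90.5%, against 48.4%). No member passed the limma test in these values either (smallest adjusted p = 0.475). An unadjusted limma p below 0.05 was found for 7 members (16.7%), against 8.96% of the genes. Among the members, the trend-removed change in replicate 2 still correlated with log2 transcript length at r = -0.311, and with GC content at 0.0999. Over the protein-coding genes these correlations were -0.012 and -0.0021.

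**Figure D3:**
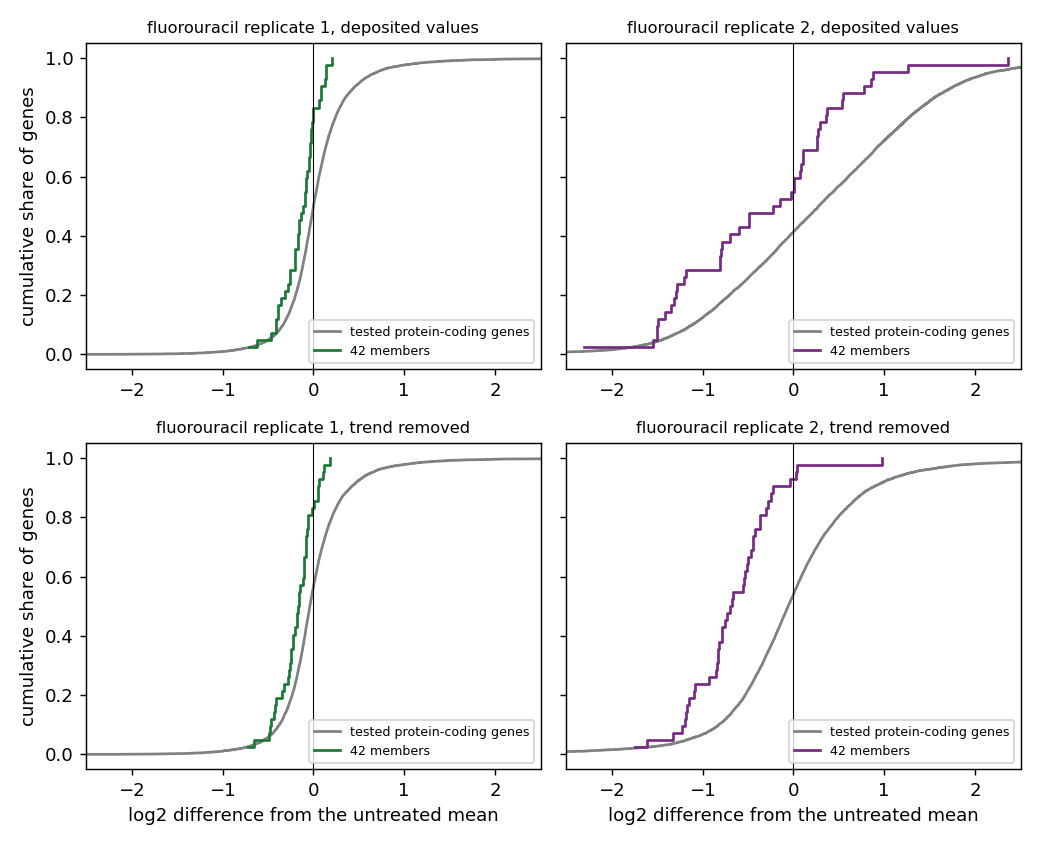
Cumulative share of genes (y axis) by log2 difference from the untreated mean (x axis) for the 42 members (coloured) and the tested protein-coding genes (grey), by treated library in columns and with deposited or trend-removed values in rows. The member curves lie to the left of the grey ones over most of their range, with trend-removed medians of -0.17 and -0.69 against -0.04 and -0.06.

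RNA polymerase I was represented by its catalytic subunits POLR1A and POLR1B, by POLR1C and POLR1D, which it shares with RNA polymerase III, and by POLR1E, a subunit particular to it. POLR1B measured 16.6, 15.9, 10.5 and 6.46 FPKM, which is 64.7% and 39.7% of its untreated mean in the treated libraries. Its groups did not overlap, and its log2 change of -0.97 (SE 0.35) had the smallest p of the members in the limma fit across all genes. That limma p was 0.0481 before adjustment, and the limma adjusted p was 0.671. POLR1A measured 14.7, 14.1, 12.0 and 5.60 FPKM, a log2 change of -0.80 (SE 0.46), again without overlap. POLR1E stood at 14.0, 13.9, 10.5 and 9.94 FPKM. In the deposited values it was the subunit whose treated libraries were closest, at 75.0% and 71.1% of the untreated mean. Its untreated values differed by less than 0.1 FPKM. With the trend removed its changes were -0.49 and -1.08, those of POLR1A -0.28 and -1.33, and those of POLR1B -0.66 and -1.23.

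The shared subunits did not follow this order. POLR1C overlapped, at 40.6, 41.1, 36.3 and 41.1 FPKM, and was lower in both treated libraries only with the trend removed (-0.24 and -0.83). POLR1D was at 47.3, 50.6, 53.9 and 252 FPKM, so its higher treated mean rested on fluorouracil replicate 2, where it was 5.15 times the untreated mean, against 1.10 times in replicate 1. With the GC and length trend removed its changes were 0.06 and 0.97, the groups overlapped, and POLR1D was the member with the highest value in replicate 2. NPM1P4, a processed pseudogene, is annotated on the opposite strand within POLR1D; the labels do not tell whether counting used strand.

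The 2 polymerase I factors differed in order. UBTF, the factor that binds ribosomal DNA and opens it for transcription, measured 16.7, 16.3, 17.5 and 20.3 FPKM (log2 change 0.19, SE 0.27). RRN3, which bridges the polymerase and the promoter-bound complex, measured 40.4, 44.4, 40.4 and 18.6 FPKM. Its value in fluorouracil replicate 1 lay only just below the lower untreated one, so RRN3 counts as lower by a narrow margin. Reads of RRN3 may also be shared with its pseudogenes, of which RRN3P1 was at 8.70, 8.76, 6.01 and 3.74 FPKM. After trend removal UBTF had changes of 0.05 and -0.30 and overlapped, and RRN3 had -0.09 and -0.68.

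**Figure D4:**
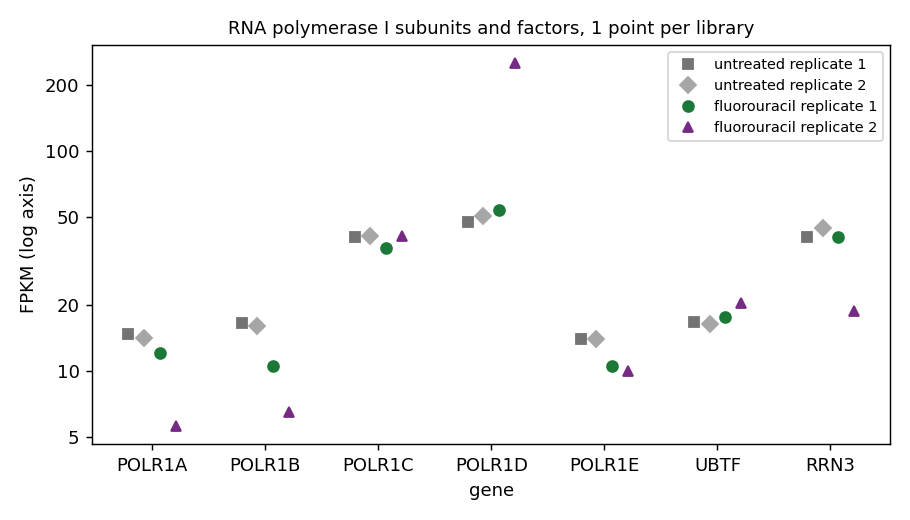
FPKM on a log axis (y axis) of the 5 RNA polymerase I subunits and 2 factors (x axis), with 1 point per library. POLR1A, POLR1B and POLR1E have both treated points below the untreated ones, and POLR1D reaches 252 FPKM in fluorouracil replicate 2 only.

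The promoter of POLR1B, whose p was the smallest, is shown with those of WDR43, the member with the largest negative change, of GNL3, another member that was lower, and of NPM1, the most abundant member. Each runs from 250 bases before to 50 bases after a RefSeq transcript start on GRCh38.p14, plus strand. Capitals mark the E-box CACGTG, the letters that MYC and its partner MAX bind. Where a gene had several promoters, one holding an E-box was shown, or else the first listed. GNL3 had 2 listed, so its stretch was picked for the E-box it holds.
POLR1B, chr2:112541786-112542085: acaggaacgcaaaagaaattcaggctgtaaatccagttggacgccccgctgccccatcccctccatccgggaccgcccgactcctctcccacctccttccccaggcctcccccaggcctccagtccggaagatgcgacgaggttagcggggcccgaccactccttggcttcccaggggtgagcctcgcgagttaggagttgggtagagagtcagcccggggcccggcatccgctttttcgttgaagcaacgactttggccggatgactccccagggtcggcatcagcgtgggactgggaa
WDR43, chr2:28894417-28894716: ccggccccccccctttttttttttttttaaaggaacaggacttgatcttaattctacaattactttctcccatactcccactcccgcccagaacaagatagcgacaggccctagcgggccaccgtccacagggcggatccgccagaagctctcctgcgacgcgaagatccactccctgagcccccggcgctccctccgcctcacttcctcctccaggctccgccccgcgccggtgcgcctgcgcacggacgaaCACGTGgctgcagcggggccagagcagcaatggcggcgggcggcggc
GNL3, chr3:52685782-52686081: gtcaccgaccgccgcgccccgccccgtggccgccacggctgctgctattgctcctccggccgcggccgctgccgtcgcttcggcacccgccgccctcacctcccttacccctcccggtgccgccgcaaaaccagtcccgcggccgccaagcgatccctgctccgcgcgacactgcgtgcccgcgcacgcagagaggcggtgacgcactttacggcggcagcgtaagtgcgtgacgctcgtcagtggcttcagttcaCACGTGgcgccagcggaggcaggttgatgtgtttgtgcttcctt
NPM1, chr5:171387599-171387898: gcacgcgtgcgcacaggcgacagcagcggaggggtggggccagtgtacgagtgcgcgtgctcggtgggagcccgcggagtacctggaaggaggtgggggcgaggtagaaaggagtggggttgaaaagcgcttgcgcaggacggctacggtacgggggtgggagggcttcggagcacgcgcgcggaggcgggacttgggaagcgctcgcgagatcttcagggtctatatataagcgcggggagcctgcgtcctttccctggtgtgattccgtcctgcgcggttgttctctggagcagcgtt
In WDR43 and GNL3 the E-box begins 3 and 6 bases after the start base, and the stretches shown of POLR1B and NPM1 have none.

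The table of promoters held 45 entries for 34 of the 42 members. The E-box CACGTG, which reads the same on both strands, occurred in at least 1 promoter of 15 of these 34 genes (44.1%), among 12.8% of 8755 tested genes and 8.77% of all 27305 genes in that table. It was present in 4 of 13 lower members, in 11 of 17 with overlapping groups and in 0 of 4 higher ones. The NRF1 letters, GCGC and TGCGC with any 1 base between them, searched on both strands, occurred in 8 of the 34 (23.5%, against 13.9% of tested genes and 6.98% of all), and the palindrome made of TCTCG and CGAGA in 1 of the 34, NOP14 (2.94%, against 1.07% and 0.505%). By promoter, shares over all 35116 entries were 7.26%, 5.78% and 0.424%. The motifs can overlap each other, and a match is a string of letters and not a binding site. MYC itself, read because it regulates these genes, measured 119, 102, 17.9 and 40.4 FPKM (log2 change -2.03, SE 0.49, limma adjusted p = 0.671).

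The nucleolar scaffold proteins included NPM1, the most abundant member. In none of the 3 were both treated values below the untreated ones, where 19.3% of all tested genes had this order. NPM1, nucleophosmin, a histone and ribosome chaperone of the outer nucleolus, was at 1028, 1104, 1127 and 1121 FPKM. Both treated values exceeded the higher untreated one by less than the untreated libraries lay apart, and the log2 change was 0.08 (SE 0.31). By level, NPM1 held rank 54 or 55 of the 12462 genes in the first 3 libraries and rank 117 in fluorouracil replicate 2. NPM1 has processed pseudogenes, so its reads may be shared. NCL, nucleolin, which binds the precursor RNA, was at 444, 494, 461 and 334 FPKM. LYAR, a zinc finger protein of the nucleolus, was at 44.7, 48.8, 53.9 and 39.8 FPKM. For NCL and LYAR the groups overlapped.

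Among the 6 snoRNP genes only NOP58 had both treated values below both untreated ones, where 19.3% of all tested genes did so. FBL, fibrillarin, the methyltransferase of box C/D snoRNPs, was the most abundant at 426, 381, 382 and 742 FPKM. Its partners on the box C/D RNA differed: NOP56 was at 115, 133, 129 and 131 FPKM, within a narrow band. NOP58 was at 112, 117, 104 and 70.5 FPKM (log2 change -0.42, SE 0.34). Of the box H/ACA proteins, which belong to the pseudouridylation machinery, GAR1 was at 28.9, 26.6, 26.7 and 33.3 FPKM. NHP2 was at 158, 138, 147 and 355 FPKM, the largest positive fitted change of the step (0.63, SE 0.52), with fluorouracil replicate 1 between the untreated values. NOLC1, a chaperone that brings snoRNPs to the nucleolus, was at 88.9, 96.5, 90.6 and 52.9 FPKM.

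After trend removal the snoRNP genes were ordered differently. FBL and NHP2 have GC contents of 57.9% and 57.1%, and their changes in fluorouracil replicate 2 went from 0.88 and 1.26 to -0.55 and -0.28. In these values 5 of the 6 were lower in both treated libraries, against 28.6% of the protein-coding genes. NOP56 overlapped, with 0.0087 and -0.82. Changes in replicate 1 stayed between -0.16 and 0.0087.

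Several members carry snoRNAs in their introns. The annotation places 23 within 6 members, NCL, NOP56, NOP58, WDR43, TSR1 and GNL3, and 18 had a row in the table. All 18 were listed at 0 in fluorouracil replicate 2, 8 were at 0 in fluorouracil replicate 1, and 9 were above 0 in both untreated libraries. The others were at 0 in at least 1 untreated library, so zeros were not particular to treated cells. Of the 18, 14 were above 0 in at least 1 library. In fluorouracil replicate 1, 7 of the 9 that were above 0 in both untreated libraries lay below both untreated values. Picking rows by their untreated values favours lower treated ones, so this count cannot be read as a response. The share of 36.4% over all tested genes carries no such selection and is not a fair measure for it. SNORA75 and SNORD69 lay between their untreated values. SNORD110 in NOP56 was at 19.1, 22.7, 5.65 and 0 FPKM, and SNORD53 in WDR43 was at 0.944, 0, 4.65 and 0 FPKM; both were chosen after their values had been seen.

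The small subunit factors included the member with the most negative change, WDR43. WDR43, HEATR1, UTP15 and WDR75 belong to the t-UTP complex, the part of the small subunit processome that joins the precursor first and is also tied to polymerase I transcription in human cells. In all 4 both treated values lay below both untreated ones, where 19.3% of all tested genes did so. WDR43 measured 54.6, 54.3, 33.2 and 10.9 FPKM, which is 61.0% and 20.1% of the untreated mean, with a log2 change of -1.51 (SE 0.61). The limma adjusted p was 0.671. UTP15 measured 10.3, 11.1, 7.72 and 3.75 FPKM, at 72.1% and 35.0% of the untreated mean. WDR75 and HEATR1 were lower by less in replicate 1, with 41.0, 38.9, 35.7 and 16.2 FPKM for WDR75 and 21.6, 22.6, 20.9 and 8.22 FPKM for HEATR1. The GC content of these 4 transcripts was 39.0% to 41.5%. Their changes in replicate 2 after trend removal were -1.74 for WDR43, -0.79 for UTP15, -0.75 for WDR75 and -0.67 for HEATR1, smaller than in the deposited values and still below both untreated libraries.

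DDX21, an RNA helicase of the nucleolus, was the most abundant of the step at 120, 136, 111 and 45.2 FPKM (log2 change -0.85, SE 0.53). TSR1, a factor of late small subunit maturation, was at 17.2, 17.997, 14.2 and 9.96 FPKM. UTP20, a large scaffold protein, was at 9.76, 10.2, 9.73 and 3.36 FPKM, with fluorouracil replicate 1 just under the untreated values. These 3 were without overlap, which makes 7 of 13 members lower, against 19.3% of all tested genes.

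Of the 13 members, RRP12 and UTP3 had both treated values above both untreated ones, where 24.4% of all tested genes did so. RRP12, which takes part in export of the precursor particle, was at 14.0, 14.1, 15.3 and 18.1 FPKM. Its log2 change of 0.25 (SE 0.27) was the highest of the step. UTP3 was at 24.1, 26.5, 27.8 and 27.2 FPKM, and both treated values exceeded the higher untreated one by less than the untreated libraries lay apart. The remaining 4 overlapped. RRP9, the protein that recognises the U3 snoRNA, was at 36.4, 32.1, 25.7 and 41.3 FPKM, low in 1 treated library and high in the other. NAT10, the acetyltransferase of 18S RNA, was at 21.8, 23.0, 19.5 and 28.7 FPKM. NOP14 lay within 32.6 to 38.1 FPKM. BYSL had the widest untreated pair of the members on the log2 scale, 18.6 and 13.1 FPKM, with 14.7 and 22.6 FPKM treated. After trend removal 9 of the 13 were lower and 0 higher, against 28.6% and 18.8% of the protein-coding genes. RRP9 was among the lower, with -0.48 and -1.17.

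For the large subunit all 13 members had a negative log2 difference in fluorouracil replicate 1, where 48.4% of all tested genes did, though that of XRN2 was only -0.0010 and that of MRTO4 -0.02. In 5 of the 13 both treated values were lower, against 19.3% of all tested genes. GNL3, nucleostemin, a GTPase of the nucleolus in proliferating cells, was the most abundant at 96.1, 91.9, 81.8 and 40.6 FPKM (log2 change -0.70, SE 0.44). URB2 had the most negative fitted change of the step, with 9.76, 8.62, 6.98 and 3.17 FPKM (log2 change -0.95, SE 0.47). NIP7, a small protein of subunit assembly, was at 38.9, 32.4, 27.1 and 20.5 FPKM. RRP1B was at 11.9, 12.6, 10.0 and 8.07 FPKM, and had the smallest fitted difference of the 5.

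PES1, BOP1 and WDR12 form the PeBoW complex, which acts in maturation of the 28S and 5.8S RNAs, and they parted in fluorouracil replicate 2. PES1 was at 30.1, 32.6, 28.1 and 53.5 FPKM. BOP1 was at 47.0, 46.4, 41.6 and 68.1 FPKM. WDR12 was at 41.2, 37.0, 32.7 and 16.003 FPKM. In fluorouracil replicate 1 all 3 lay below both untreated values, where 36.4% of all tested genes did. They were at 89.7%, 89.1% and 83.5% of the untreated mean. Their GC contents were 58.1%, 65.2% and 40.2%, and with the trend removed their changes in replicate 2 were -0.25, -0.93 and -0.43.

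The other large subunit factors overlapped. WDR74 had the highest fitted change of the step (0.38, SE 0.43), with 43.9, 37.3, 37.9 and 73.5 FPKM. RRS1, which recruits the 5S particle, was at 35.4, 36.1, 27.9 and 35.8 FPKM, so it was low in 1 treated library. XRN2, the nuclear 5′ to 3′ exonuclease that trims precursor ends, was at 54.8, 60.3, 57.5 and 33.0 FPKM. NOP2, a methyltransferase of 28S RNA, lay within 34.3 to 43.1 FPKM. NOP16 spanned 55.8 to 61.8 FPKM and MRTO4 45.2 to 49.2 FPKM. In the trend-removed values 12 of 13 large subunit members were lower in both treated libraries, against 28.6% of the protein-coding genes. XRN2 overlapped, with -0.02 and -0.45.

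A list of 92 further ribosome production genes, none of them a member, was read beside the 42. Of these, 91 were tested, and 0 passed limma in either direction, with 0 at an unadjusted p below 0.05. Both treated values lay below both untreated ones in 34 and above in 11, where 19.3% and 24.4% of all tested genes did so, and 46 overlapped. Medians of the log2 change were -0.08 for fluorouracil replicate 1 and -0.24 for replicate 2. With the trend removed 49 of 91 were lower and 7 higher, against 28.6% and 18.8% of the protein-coding genes, with medians of -0.10 and -0.38. The 3 with the smallest p among the lower ones were TAF1A, NOC3L and BRIX1. TAF1A, a subunit of the promoter selectivity factor of polymerase I, was at 4.77, 4.57, 3.07 and 1.82 FPKM. NOC3L, a large subunit factor, was at 21.5, 20.8, 14.4 and 4.55 FPKM, and BRIX1, another, at 133, 130, 97.7 and 61.9 FPKM. Among the higher ones these were PPAN, TAF1C and POLR2F. PPAN, also of the large subunit, was at 0.914, 1.02, 1.27 and 10.4 FPKM, high in 1 library. TAF1C, the partner of TAF1A, was at 6.30, 9.18, 9.51 and 15.5 FPKM, and POLR2F, a subunit common to the nuclear polymerases, at 12.9, 12.7, 14.4 and 36.2 FPKM.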

How the data were processed

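RNA-seq of 4 HT29 libraries was read from 1 table deposited by the authors, with 1 column per library, whose values were taken as FPKM because Cufflinks is listed; the header gives no unit. Per the submitters' processing notes, TopHat2 2.1.0 and Cufflinks 2.2.1 were used, with builds hg38 and mm10 listed without roles. The sources used here do not give annotation, strand setting or scaling. Fragment numbers per library are unknown, so no counting interval was computed.

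From these values, 28 rows with a number in place of a symbol were left out. In fluorouracil replicate 2 a block of 78 rows (MFRP to MICALL2, no member) followed the other libraries better when moved by 1 row (r of 0.914 against 0.410) and was kept. The limma test (version 3.58.1, R 4.3.3, prior variance with trend) ran on log2(FPKM + 0.1) of the 12462 genes whose mean reached 1 FPKM. It was two-sided, left 2 degrees of freedom, and p-values were adjusted by Benjamini-Hochberg with a threshold of 0.05. Transcript length and GC content are those of the principal GENCODE 29 transcript, found for all 42 members; the trend on both was removed by loess (span 0.3). The limma step was also run on simulated data with large increases only, which cannot tell how well it finds small changes or decreases.

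Members, gene lists, motifs and alternatives were chosen with earlier results of these data known. All members are named; full values are given for every polymerase I gene, for those of each step with the lowest and highest change or the highest level, and for others of the same complexes. Promoter sequences are from RefSeq (GRCh38.p14). Alternatives were another pseudocount, no filter, each library left out, a replicate block, quantile normalization, median centring and trend removal; a fit on protein-coding genes and one without the displaced block were added after seeing the data.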

Additional observations from a re-analysis of the deposited data

How the results depend on the processing

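The count of 17 lower members was 31 with the GC and length trend removed, and between 17 and 25 under every other alternative that gives it; leaving out 1 library gave 18 to 25. The count of 5 higher members was 3 after quantile normalization, 3 after median centring and 0 with the trend removed, and 6 to 17 when 1 library was left out, the 17 without fluorouracil replicate 1. The median log2 change of the members, -0.13 over both treated libraries, was -0.43 after quantile normalization and -0.40 with the trend removed, and -0.19 to -0.10 without 1 library. Among all tested genes limma called 0 (400 at an unadjusted p below 0.05), 339 with the replicate block, and 0 to 8337 when 1 library was left out, with 18 without fluorouracil replicate 2 and 8337 (66.9%) without fluorouracil replicate 1. In that last fit the lone treated library is assumed to vary like the untreated pair. That fit called 28 members (66.7%), a share close to the 66.9% of all tested genes. In each other fit 0 members were called. Among the members with non-overlapping groups, 4 fitted changes turned sign. UBTF went to -0.12 and RRP12 to -0.19 with the trend removed, and NPM1 to -0.57 and UTP3 to -0.043 after quantile normalization. Overlapping members turned sign too: with the trend removed FBL went from 0.40 to -0.36 and NHP2 from 0.63 to -0.19. Trend removal turned no member from negative to positive. The cause of these turns was not tested. The labels give both groups the replicate numbers 1 and 2 without saying that a number marks a shared culture or day. The difference between untreated replicates 1 and 2 correlated with that between fluorouracil replicates 1 and 2 at r = -0.0479 over genes. That value cannot tell whether a number marks a shared culture or day, because the fluorouracil difference includes the GC and length trend of replicate 2. The block called 339 genes and 0 members. Unknown depth and 2 libraries per group limit every value.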

Other observations

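The members' place in the order of all tested genes moved with the library. Their median rank by FPKM, of 12462 genes, was 1795 and 1878 in the untreated libraries, 2067.5 in fluorouracil replicate 1 and 2856.5 in fluorouracil replicate 2. WDR43 ranked 1271 and 1269 untreated, 2122 in fluorouracil replicate 1 and 5939 in replicate 2, and POLR1B 4197, 4286, 5829 and 7634. Ranks do not depend on a common scaling of a library but do depend on its GC and length trend. The members' summed FPKM was 0.832% and 0.871% of the untreated totals, and 0.809% and 0.524% of the totals of fluorouracil replicates 1 and 2. The sums themselves were 3609 and 3713 FPKM untreated, and 3560 and 4005 FPKM in fluorouracil replicates 1 and 2. The lower share in replicate 2 thus stood beside a higher sum and a higher library total.

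The pseudogene row RRN3P3, like RRN3P1, had lower values in both treated libraries, with 5.01 and 4.70 FPKM untreated and 3.09 and 2.69 FPKM treated. RRN3 itself was at 40.4 and 44.4 FPKM untreated and at 40.4 and 18.6 FPKM treated. Genes annotated on the opposite strand overlap 21 of the 42 members, 13 of them with a protein-coding gene, and the share of their reads was not tested.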
